A study of Mus musculus with 6 samples.

Results

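Genes for mitochondrial ribosomal proteins were examined in regulatory T cells (Tregs) of tumour-bearing mouse colon. Members were the genes whose symbol on the array begins with Mrpl or Mrps and a digit, which gave 76 of 19494 genes. By symbol, 48 belong to the large subunit and 28 to the small subunit, and each was measured by 1 row of the deposited table. The cells came from mice carrying both a Foxp3-RFP and a GPR15-GFP reporter, in which colorectal cancer had been induced by AOM/DSS, that is by the carcinogen azoxymethane together with dextran sulfate sodium, an agent that injures the colon lining. CD4-stained, RFP+ lymphocytes of the tumorous colonic lamina propria were sorted into a GPR15-GFP+ and a GPR15-GFP- fraction. GPR15 is a homing receptor of colonic T cells, and both fractions carry both reporters and had the same treatment. There were 3 arrays per fraction, with the samples of each numbered 1, 5 and 6. Cells were sorted straight into lysis buffer, and the small amounts of RNA were amplified and biotin-labelled for 1-colour arrays. The labels give no age, strain background or pooling, and they do not say whether the samples of a fraction are separate animals, so the spread behind each p-value may be technical.

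Mitochondria keep a small genome of their own, and the few proteins it encodes are core subunits of the respiratory chain and of ATP synthase. They are made by a separate ribosome inside the organelle, whose RNA comes from the mitochondrial genome while all its proteins are encoded in the nucleus and imported. The small subunit binds the messenger and decodes it, and the large subunit joins amino acids and passes the chain to the inner membrane.

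Values below are log2 intensities, and each difference is the value in samples labelled GPR15+ minus that in samples labelled GPR15-. Gpr15 itself lay at 8.51, 9.12 and 8.70 in the GPR15- samples numbered 1, 5 and 6 and at 8.23, 7.86 and 8.28 in the GPR15+ samples. The gene was lower in the fraction labelled GPR15+, so directions rest on the labels alone. These values may not check the labels, because it is not known here whether the probes lie in sequence that the GPR15-GFP allele keeps. Both arrays numbered 1 had a narrower spread of values over all rows (SD 1.63 in each) than the other 4 (SD 1.74 to 1.87). Among T cell genes, Cd3e, Cd3g, Ctla4, Cd28, Cd4 and the Treg factor Ikzf2 lay between the 93.3 and 99.3 percentiles of mean intensity, whereas the row for Il2ra, the interleukin-2 receptor chain CD25, lay at the 20.0 percentile. Fewer cells of a type and less RNA per cell cannot be told apart in these bulk samples.

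Mitoribosomal rows were bright. Their median level over the 6 arrays was 8.08 for the large and 7.82 for the small subunit, against 6.61 for all genes, and 70 of 76 lay above that median. Levels ran from 5.66 for Mrps15 to 10.55 for Mrpl24. Intensity depends on the probes as well as on the transcript, so these levels describe rows and do not rank transcripts. Within the large subunit Mrpl24, Mrpl33 and Mrpl37 were the brightest rows and Mrpl43, Mrpl13 and Mrpl35 the dimmest. In the small subunit the brightest were Mrps14, Mrps18c and Mrps12 and the dimmest Mrps15, Mrps27 and Mrps22.

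**Figure D1:**
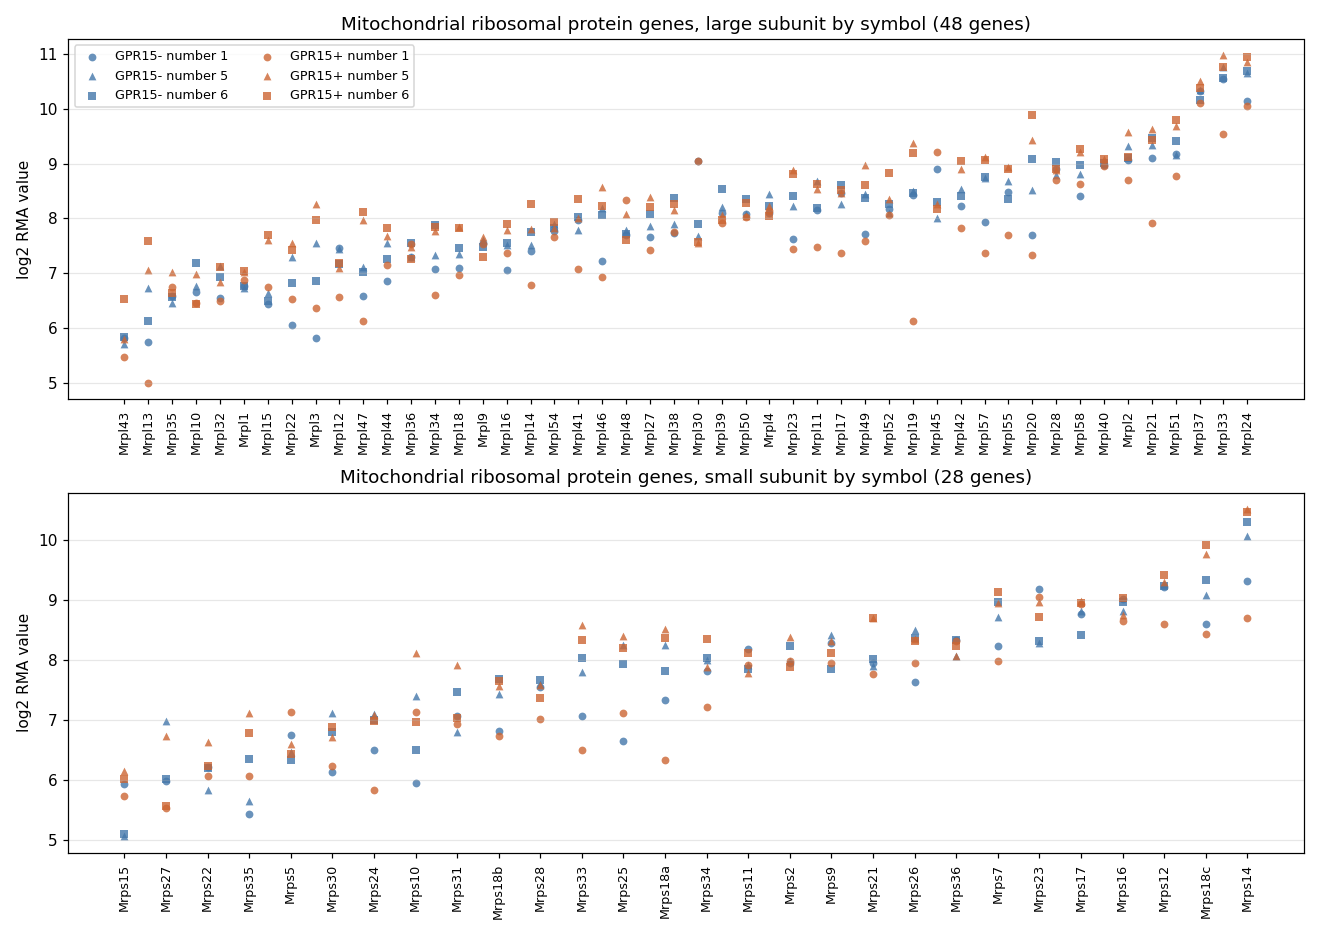
Log2 values of the 76 genes on each of the 6 arrays (vertical axis), with genes ordered by mean level (horizontal axis), the large subunit above and the small below; colour marks the fraction and shape the sample number. The orange circles, GPR15+ number 1, are the lowest of the 6 points for 45 of the 76 genes.

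Promoters were read for 67 of the 76 genes from RefSeq (GRCm38.p6), as the 250 bases before and 50 after each annotated start. They were searched on both strands for letters bound by factors known to act on mitochondrial genes: CCGGAAG of the ETS family, to which GABPA belongs, GCGCA and GCGC with any 1 base between them for NRF1, and AA and ATGGCGG with any 1 base between them for YY1. A stretch can hold more than 1 of these. The ETS letters were found in 25 members (37.3%) against 13.2% of the 15683 measured genes with a promoter, the NRF1 letters in 13 (19.4%) against 7.63%, and the YY1 letters in 7 (10.4%) against 2.33%. At least 1 of these was present in 38 members (56.7%) against 20.8%. Among 53 cytosolic ribosomal protein genes the ETS share was as large, at 37.7%, and the NRF1 share was 9.43%. A match describes the letters only. Stretches before the start are printed for members whose values are followed below, with the matched letters in capitals.
Mrpl3: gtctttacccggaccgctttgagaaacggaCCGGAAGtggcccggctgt
Mrpl22: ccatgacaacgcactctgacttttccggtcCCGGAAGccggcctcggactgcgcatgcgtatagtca
Mrps18c: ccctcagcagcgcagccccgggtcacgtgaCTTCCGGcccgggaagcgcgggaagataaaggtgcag
Mrps27: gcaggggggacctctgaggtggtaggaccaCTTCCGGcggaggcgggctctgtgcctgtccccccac
Mrps21: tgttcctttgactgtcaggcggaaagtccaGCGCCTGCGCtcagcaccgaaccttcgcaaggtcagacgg
Mrpl12: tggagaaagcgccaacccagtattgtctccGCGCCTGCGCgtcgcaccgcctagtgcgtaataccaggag

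The first 4 hold the ETS letters or their reverse complement and the last 2 the reverse complement of the NRF1 letters. They lie at chr9:105053219-105053267 (Mrpl3, plus strand), chr11:58171581-58171647 (Mrpl22, plus), chr5:100798573-100798639 (Mrps18c, plus), chr13:99344708-99344774 (Mrps27, plus), chr3:95871566-95871635 (Mrps21, minus) and chr11:120484526-120484595 (Mrpl12, plus). Between the matched letters and the start lie 12 bases in Mrpl3, 46 in Mrpl22, 149 in Mrps18c, 41 in Mrps27, 81 in Mrps21 and 71 in Mrpl12. Members with the ETS letters had a median difference between fractions of 0.14, against 0.04 in the other members with a promoter. For the NRF1 letters these medians were -0.04 with and 0.13 without, and for the YY1 letters -0.04 and 0.07. In the large subunit they were 0.16 and 0.05 for ETS, -0.05 and 0.14 for NRF1 and 0.14 and 0.06 for YY1. In the small subunit they were 0.04 and 0.03 for both ETS and NRF1, and -0.07 and 0.18 for YY1. In samples numbered 1, 5 and 6, members with the ETS letters had medians of -0.24, 0.30 and 0.30. None of these contrasts was tested.

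The fractions were compared to ask how tumour-associated Tregs with GPR15 differ from those without. For the mitoribosome as a whole the difference was small: the median was 0.06 over the 48 large subunit genes and 0.03 over the 28 small subunit genes, against -0.06 over all genes. Of the members, 30 of 48 and 17 of 28 lay above 0, where 40.8% of all genes did. No member passed limma's adjusted threshold of 0.05 in either direction, nor did any other gene (0% of all genes each way; lowest adjusted p among members 0.773). At an unadjusted p under 0.05, 2 members were higher (Mrpl15 and Mrps35; 2.79% of all genes) and 0 were lower (3.44% of all genes). With the sample number as a replicate block these counts were 5 (6.14% of all genes) and 1 (6.23% of all genes), and the lowest adjusted p from limma among members was 0.269. The 3 arrays of the fractions did not overlap for 4 members that lay higher (4.12% of all genes), Mrpl15, Mrpl35, Mrpl1 and Mrps17, and for 1 that lay lower (9.17% of all genes), Mrpl39. With 3 arrays a side, the smallest 2-sided p that an exact permutation test can give for any member is 0.1.

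Both small medians depend on scaling. Centring the arrays on their medians raised them to 0.13 and 0.10, with 36 of 48 and 21 of 28 members above 0. After quantile normalization they were -0.01 and -0.03, with 23 of 48 and 12 of 28 members above 0, and after removal of the trend of difference with intensity they were 0.04 and -0.01.

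**Figure D2:**
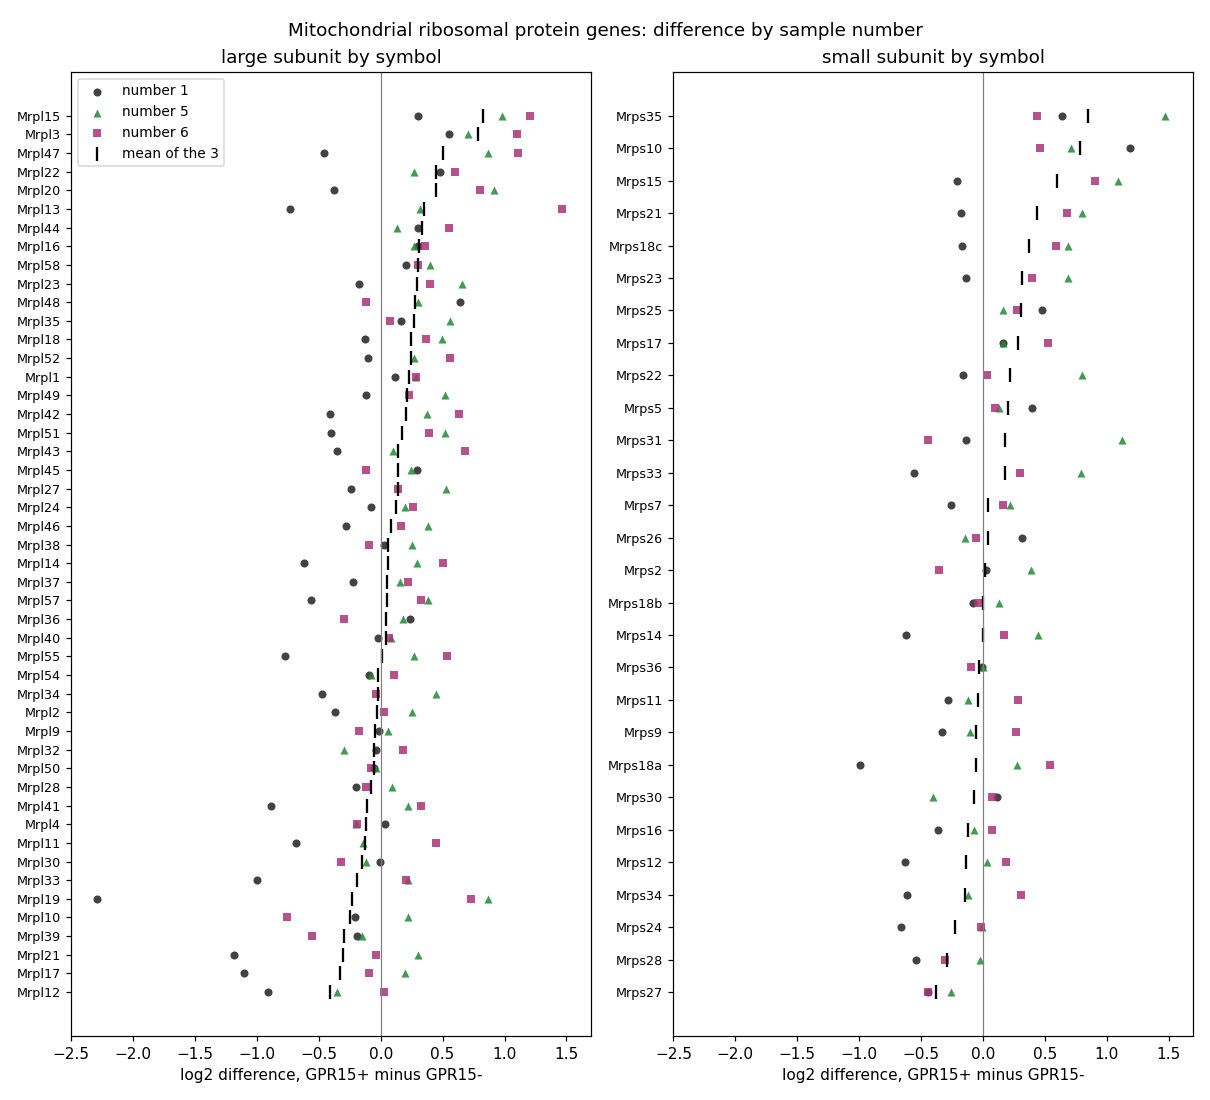
Log2 difference between fractions (horizontal axis) for each gene (rows, ordered by the mean difference), shown for each sample number by colour and shape, with a bar at the mean of the 3. Black circles, number 1, lie mostly left of 0 and the other symbols mostly right of it, with Mrpl19 at -2.29 in number 1 the farthest out.

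The sample numbers went different ways. In number 1 the large subunit had a median difference of -0.18 and the small subunit of -0.17, whereas in number 5 these were 0.27 and 0.16 and in number 6 they were 0.22 and 0.18. Members above 0 made up 27.6% in number 1 (46.9% of all genes), 77.6% in number 5 (41.9% of all genes) and 71.1% in number 6 (42.6% of all genes). The medians of both subunits kept these signs in every number after median centring, quantile normalization and removal of the intensity trend. In the last case they were -0.17, 0.18 and 0.14 for the large and -0.16, 0.10 and 0.21 for the small subunit. The difference between numbers was not tested, since only a single pair of arrays went the other way.

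The member means of single arrays show which samples differed. For the large subunit the mean was 7.80, 8.05 and 8.07 in GPR15- numbers 1, 5 and 6 and 7.55, 8.33 and 8.33 in GPR15+. For the small subunit it was 7.49, 7.77 and 7.75 in GPR15- and 7.35, 8.09 and 7.93 in GPR15+. Both arrays numbered 1 were thus the lowest, GPR15+ number 1 below GPR15- number 1, and the fractions overlapped. GPR15+ number 1 gave the lowest of the 6 values for 32 of 48 large and 13 of 28 small subunit genes, or 59.2% of members, against 18.8% of all genes. Scatter among the GPR15+ arrays was accordingly wide, with a median SD of 0.51 over members against 0.22 among the GPR15- arrays. The contrast was larger in the large subunit (0.52 against 0.18) than in the small (0.48 against 0.35). Over all genes these medians were 0.27 and 0.20.

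**Figure D3:**
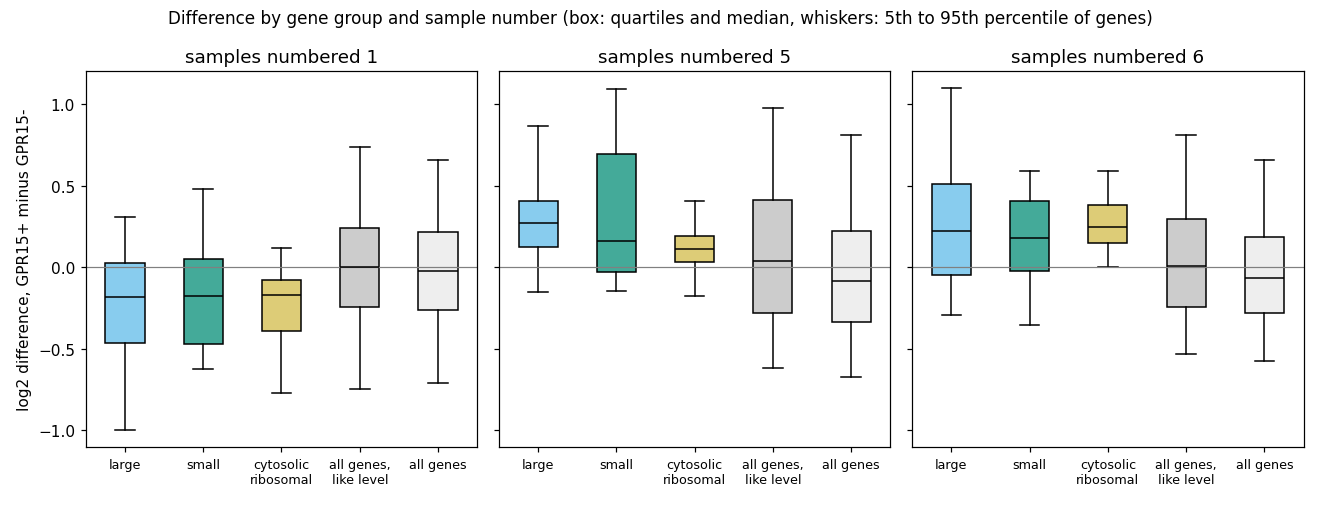
Log2 differences between fractions (vertical axis) in samples numbered 1, 5 and 6, as boxes over genes for the large subunit, the small subunit, cytosolic ribosomal proteins, all genes of like level and all genes. Boxes span the quartiles with a line at the median, and whiskers run from the 5th to the 95th percentile; the first 3 medians lie below 0 in number 1 and above it in numbers 5 and 6, while the pooled genes with levels from 7.19 to 8.49 have medians of 0.00, 0.04 and 0.00.

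Genes were also read by brightness, since differences in numbers 5 and 6 varied with it. The 4377 genes with mean levels from 7.19 to 8.49, the range between the members' quartiles, had medians of 0.00, 0.04 and 0.00 in numbers 1, 5 and 6. Brighter genes lay higher in numbers 5 and 6. Among all genes at 8 to 9 log2 units the medians were -0.01, 0.18 and 0.12, and the 27 members there had -0.17, 0.24 and 0.23. At 7 to 8 units the medians of all genes were 0.00, -0.03 and -0.05, and those of 24 members -0.19, 0.27 and 0.28. At 9 to 10 units all genes had -0.05, 0.20 and 0.16 and 7 members had -0.40, 0.30 and 0.17. At 6 to 7 units the median of 13 members did not share the sign in number 1. It was 0.11, 0.27 and 0.09, against -0.04, -0.17 and -0.12 for all genes. The 2 members at 5 to 6 units had -0.28, 0.60 and 0.79, against -0.04, -0.20 and -0.16 for all genes. Differences were negative in number 1 and positive in both others for 32 members, or 42.1%, against 13.5% of all genes, and the reverse pattern was seen in 2 members, against 18.8% of all genes. Across the 76 genes, which share arrays, the differences in numbers 5 and 6 had a Pearson r of 0.45, and number 1 had an r of 0.07 with number 5 and of -0.07 with number 6. Over all genes these correlations were 0.49, 0.05 and 0.06.

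**Figure D4:**
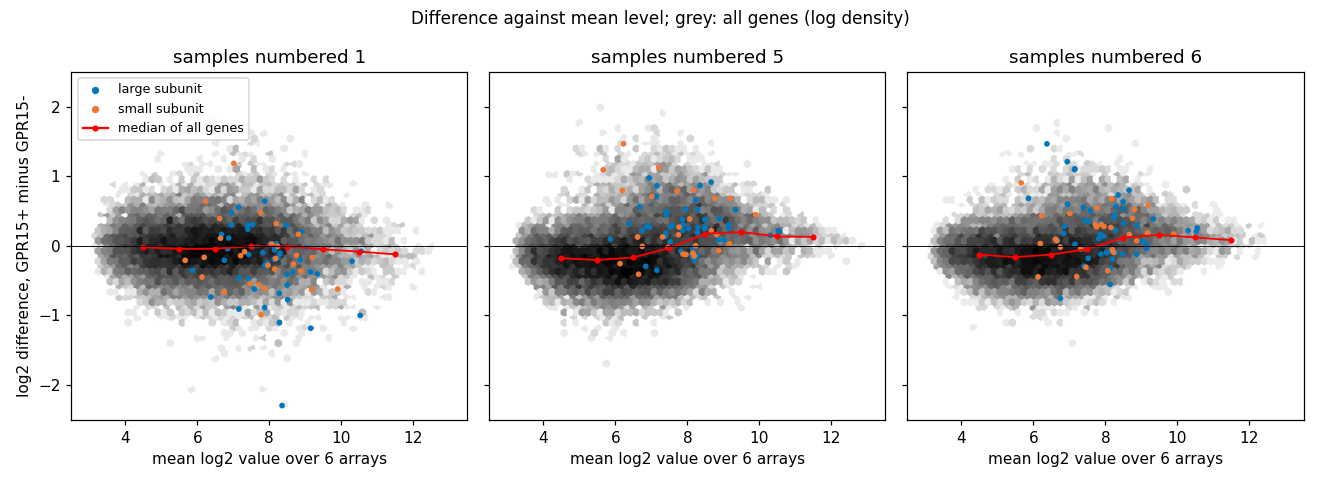
Difference between fractions (vertical axis, log2) against mean log2 level over 6 arrays (horizontal axis) for each sample number, with all genes in grey, large subunit genes in blue, small subunit genes in orange and the median of all genes per unit of level in red. At levels of 8 to 9 the members' medians are -0.17, 0.24 and 0.23 in numbers 1, 5 and 6, against -0.01, 0.18 and 0.12 for all genes.

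Without both arrays numbered 1, the medians were 0.27 for the large and 0.15 for the small subunit, against -0.08 for all genes. Then 16 members were higher at an unadjusted p under 0.05 (9.59% of all genes) and 0 lower (11.4% of all genes), with none past the adjusted threshold (lowest limma adjusted p among members 0.0803). The leading members were Mrpl15 at 1.09 ± 0.16 (SE), Mrps15 at 1.00 ± 0.16 (SE), Mrpl47 at 0.98 ± 0.16 (SE) and Mrpl19 at 0.80 ± 0.16 (SE). Without GPR15+ number 1 alone, 23 members were higher at that level (9.54% of all genes) and the medians were 0.33 and 0.27. Number 1 was the only number with negative medians, so the rise without it follows from the values by number and adds no support. No fit left out both arrays numbered 5 or both numbered 6.

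Under limma's array weights 8 members passed the adjusted threshold, all higher (5.02% of all genes, with 6.13% lower): Mrpl15, Mrpl47, Mrpl13, Mrpl52, Mrps15, Mrps21, Mrps35 and Mrps18c. At an unadjusted p under 0.05 it gave 23 higher (12.9% of all genes) and 3 lower (20.7% of all genes). That fit gave GPR15+ number 1 a weight of 0.191 and GPR15+ number 6 a weight of 6.56, so it rests largely on the latter array, and its estimation stopped short of its tolerance.

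Within the large subunit, proteins of the core around the peptidyl transferase centre, where amino acids are joined, had a median difference of 0.14 over 5 genes, with 3 above 0. Mrpl3, one of the core proteins shared with bacteria, lay at 5.81, 7.56 and 6.87 in GPR15- numbers 1, 5 and 6 and at 6.37, 8.26 and 7.97 in GPR15+. The GPR15+ sample was higher in each number, yet the numbers differed more than the fractions, which overlapped. Its difference was 0.79 ± 0.58 (SE) without and ± 0.17 (SE) with the replicate block, or 1.72-fold, and it did not pass (limma adjusted p = 0.803 and 0.269). Mrpl16, also of the core, differed by 0.30, 0.27 and 0.35 in the 3 numbers. Mrpl2 and Mrpl4 differed by -0.03 and -0.12.

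Mrpl15, a protein of the bacterial-type core, had the smallest unadjusted p of all members in limma without the block (0.0148). With the replicate block Mrpl3 (0.00231) and Mrps10 (0.00355) had smaller values than Mrpl15 (0.00467). It lay at 6.45, 6.64 and 6.49 in GPR15- and at 6.75, 7.61 and 7.70 in GPR15+ numbers 1, 5 and 6. The fractions did not overlap, though GPR15+ number 1 lay close to the GPR15- samples. The difference was 0.83 ± 0.27 (SE), or 1.78-fold (limma adjusted p = 0.773; 0.295 with the replicate block).

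Around the exit of the peptide tunnel, where the new chain meets the inner membrane, the median was 0.22 over 8 genes, with 6 above 0. Mrpl22, whose promoter stretch is printed above, differed by 0.48, 0.27 and 0.60. Its values were 6.05, 7.29 and 6.83 in GPR15- and 6.53, 7.56 and 7.42 in GPR15+, so the fractions overlapped while each number kept the order. Mrpl47 lay at 6.59, 7.11 and 7.02 in GPR15- and at 6.13, 7.97 and 8.12 in GPR15+, low in number 1 and high in both others. Mrpl24, among the brightest rows, differed by only 0.13. Mrpl45, which anchors the ribosome to the inner membrane, differed by 0.14. Mrpl39 went the other way without overlap, from 8.11, 8.21 and 8.53 in GPR15- to 7.91, 8.06 and 7.98 in GPR15+ (-0.30 ± 0.17, SE; limma adjusted p = 0.773). Mrpl17 lay at 8.46, 8.27 and 8.61 in GPR15- and at 7.36, 8.46 and 8.51 in GPR15+, with GPR15+ number 1 below all others.

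The proteins of the stalks recruit translation factors or, for Mrpl1, guide the leaving transfer RNA. Their median was -0.19 over 4 genes, with 1 above 0. By number the medians were -0.44, 0.04 and 0.15, so only number 1 was negative, and 0 of the 4 lay below 0 in all 3 numbers. Mrpl12, the L7/L12 protein of the stalk, had the most negative difference of all members, at -0.41 ± 0.21 (SE; limma adjusted p = 0.773). Its values were 7.47, 7.44 and 7.17 in GPR15- and 6.56, 7.09 and 7.19 in GPR15+, so the fractions overlapped at number 6. Mrpl10, which holds Mrpl12 on the ribosome, lay at 6.66, 6.77 and 7.19 in GPR15- and at 6.45, 7.00 and 6.43 in GPR15+, with no order between fractions. Mrpl1 differed by 0.11, 0.29 and 0.28, and Mrpl11 by -0.68, -0.14 and 0.44.

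In the central protuberance, the crest that faces the small subunit, all 5 genes lay above 0 with a median of 0.09. Mrpl58, which can release stalled chains, differed by 0.20, 0.40 and 0.30. Mrpl40 was nearly flat, at -0.02, 0.08 and 0.06. Median centring, quantile normalization and trend removal gave this group medians of 0.16, -0.01 and 0.02, so its sign is not stable.

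In several large subunit genes GPR15+ number 1 stood apart from the other arrays. Mrpl19 lay at 8.43, 8.51 and 8.47 in GPR15- and at 6.14, 9.37 and 9.20 in GPR15+. That single array was lower than all others and both remaining GPR15+ arrays were higher than all GPR15- arrays. Mrpl21 lay at 9.11, 9.33 and 9.46 in GPR15- and at 7.92, 9.63 and 9.43 in GPR15+. Mrpl33 lay at 10.54, 10.76 and 10.56 against 9.54, 10.97 and 10.77. For both, the order in number 5 was the reverse of that in number 1. Mrpl20 was low in both arrays numbered 1, at 7.70, 8.51 and 9.09 in GPR15- and 7.33, 9.43 and 9.89 in GPR15+, and so was Mrpl13, at 5.74, 6.74 and 6.12 in GPR15- and 5.01, 7.06 and 7.59 in GPR15+.

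Of the other rows of extreme level, Mrpl24 lay at 10.13, 10.64 and 10.68 in GPR15- and at 10.06, 10.84 and 10.94 in GPR15+. Mrpl37 lay at 10.32, 10.35 and 10.16 against 10.10, 10.50 and 10.37. Fractions overlapped in both. Of the dim rows, Mrpl43 lay at 5.82, 5.71 and 5.85 against 5.47, 5.81 and 6.53, with overlap. Mrpl35 lay at 6.59, 6.46 and 6.56 against 6.76, 7.02 and 6.64, without overlap (0.27 ± 0.17, SE; limma adjusted p = 0.776).

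Large subunit genes with a bacterial counterpart (29 genes) had a median of 0.04, with 15 above 0, and those found only in mitochondrial ribosomes (18 genes) had 0.11, with 14 above 0. Differences were more scattered in the former (SD over genes 0.32) than in the latter (0.16). After quantile normalization their medians were -0.01 and 0.01. By number the medians were -0.20, 0.27 and 0.20 for the former and -0.11, 0.25 and 0.22 for the latter.

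In the small subunit, the head, which holds the transfer RNAs from above, had a median that rounds to 0.00 over 5 genes, with 3 above 0, and its sign changed with the scaling. Mrps10 stood out within it, at 5.94, 7.40 and 6.50 in GPR15- and 7.13, 8.12 and 6.97 in GPR15+. Each GPR15+ sample was above its equal-numbered partner, by 1.19, 0.71 and 0.46, although the fractions overlapped. The difference was 0.79 ± 0.43 (SE), or 1.73-fold (limma adjusted p = 0.773; 0.286 with the replicate block). Mrps14, the brightest small subunit row, lay at 9.31, 10.07 and 10.30 in GPR15- and 8.70, 10.52 and 10.47 in GPR15+, with equal means in both fractions. Mrps24 lay at 6.50, 7.10 and 6.99 in GPR15- and at 5.84, 7.09 and 6.97 in GPR15+, apart in number 1 and level in the others.

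The body and platform, which carry the decoding site and contacts to the large subunit, had a median of 0.24 over 8 genes, with 5 above 0. Mrps15 lay at 5.93, 5.06 and 5.10 in GPR15- and at 5.73, 6.15 and 6.01 in GPR15+. Numbers 5 and 6 differed by 1.09 and 0.90 and number 1 by -0.21, in a row that is dim (29.0 percentile). Mrps21 lay at 7.94, 7.91 and 8.02 in GPR15-, a narrow range, and at 7.76, 8.71 and 8.70 in GPR15+. Mrps12, the protein of the decoding site, lay at 9.22, 9.27 and 9.23 in GPR15- and at 8.59, 9.30 and 9.42 in GPR15+, so that GPR15+ number 1 alone stood apart. Mrps17 was higher without overlap, from 8.76, 8.82 and 8.42 to 8.93, 8.98 and 8.95 (0.28 ± 0.17, SE; limma adjusted p = 0.773).

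Small subunit genes found only in mitochondria had a median of 0.18 over 10 genes, with 8 above 0, against 0.02 over the 15 with a bacterial counterpart, of which 9 lay above 0. The latter median was below 0 after quantile normalization (-0.10) and after trend removal (-0.07). Mrps35, of the former, had the largest difference of all members, at 0.85 ± 0.33 (SE), or 1.80-fold (limma adjusted p = 0.773; 0.304 with the replicate block). It lay at 5.42, 5.65 and 6.34 in GPR15- and at 6.06, 7.11 and 6.78 in GPR15+, and overlapped only through GPR15+ number 1. Mrps27, an RNA-binding protein of the same class, was the lowest of the subunit, at 5.97, 6.98 and 6.01 in GPR15- and 5.52, 6.72 and 5.57 in GPR15+. Its differences of -0.45, -0.26 and -0.45 were even, while number 5 was high in both fractions. Mrps28 lay at 7.55, 7.59 and 7.67 in GPR15- and at 7.01, 7.57 and 7.36 in GPR15+, below 0 in all 3 numbers. Mrps34 lay at 7.82, 8.00 and 8.03 against 7.21, 7.88 and 8.34, and Mrps22 at 6.22, 5.83 and 6.19 against 6.06, 6.63 and 6.22. Both had mixed signs over the numbers.

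By the known structures, symbols do not always tell where a protein sits. Mrps30 and Mrps18a are placed in the large subunit of the assembled ribosome, and Mrps36 is now known as a subunit of the 2-oxoglutarate dehydrogenase complex. Without these 3 the small subunit median was 0.04 over 25 genes, with 17 above 0. The paralogs Mrps18a, Mrps18b and Mrps18c, related to a single bacterial protein, were all below 0 in number 1 and above it in number 5, and in number 6 Mrps18b alone was slightly below (-0.04). Mrps18a lay at 7.33, 8.25 and 7.81 in GPR15- and at 6.33, 8.52 and 8.36 in GPR15+, which spans the whole GPR15- range and more. Mrps18b lay at 6.81, 7.43 and 7.69 against 6.73, 7.56 and 7.65, with no difference in the mean. Mrps18c lay at 8.61, 9.08 and 9.33 against 8.44, 9.76 and 9.91, higher in numbers 5 and 6 by 0.69 and 0.59. Mrps30 lay at 6.12, 7.12 and 6.80 against 6.23, 6.71 and 6.88, and Mrps36 was flat (-0.01, 0.00 and -0.09).

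Of 76 members, 13 lay above 0 in all 3 numbers (13.4% of all genes) and 6 below (23.6% of all genes). The former were Mrpl1, Mrpl3, Mrpl15, Mrpl16, Mrpl22, Mrpl35, Mrpl44, Mrpl58, Mrps5, Mrps10, Mrps17, Mrps25 and Mrps35, and the latter Mrpl30, Mrpl39, Mrpl50, Mrps24, Mrps27 and Mrps28.

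Other genes of mitochondrial translation were read in the same fit, and 0 of them passed the adjusted threshold in either direction. Mitoribosomal proteins with unrelated names had a median of 0.12, with 3 of 4 measured above 0. They were Ptcd3 (0.28), Dap3 (0.17), Chchd1 (0.08) and Gadd45gip1 (-0.15). Mitochondrial translation factors had medians of -0.35, 0.32 and 0.23 in numbers 1, 5 and 6 over 16 genes, the same signs as the ribosomal proteins. None of these list differences was tested. Among the factors, the initiation factor Mtif3 differed by 0.46 ± 0.21 (SE), the recycling factor Mrrf by 0.53 ± 0.29 (SE) and the elongation factor Tsfm by -0.37 ± 0.16 (SE).

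Genes of mitoribosome assembly and ribosomal RNA modification had medians of 0.00, 0.22 and -0.05 over 26 genes. Rpusd3, a pseudouridine synthase family member, differed by -0.59 ± 0.16 (SE), with all 3 numbers below 0. Mterf3 (0.70 ± 0.33, SE) and the GTPase Gtpbp10 (0.60 ± 0.27, SE) lay above 0. Mitochondrial aminoacyl-tRNA synthetases, which charge the organelle's transfer RNAs, had a median of 0.01 over 16 genes, with Hars2 at 0.29, Tars2 at 0.28 and Lars2 at -0.34.

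Genes that keep and transcribe mitochondrial DNA had medians of -0.13, 0.43 and 0.19 over 11 genes. Tfam, which packages that DNA, lay at -0.90, 0.69 and 1.09, and the transcription factor Tfb2m at -1.33, 1.65 and 0.90, both following the sign pattern of the ribosomal proteins with larger differences. Both were named after their values were seen. The helicase Twnk lay below 0 in all 3 numbers, at -0.48, -1.08 and -0.27. Polg2 (0.04, 0.43 and 0.52) and Top1mt (0.27, 0.36 and 0.19) lay above 0 in all 3. Of the regulators, Nrf1 differed by 0.05, Gabpa by -0.07, Yy1 by 0.21 and Gabpb1 by 0.28, while Myc lay at -1.15, -0.28 and -0.24. Ribosome biogenesis targets of Myc had a median that rounds to 0.00 over 17 genes. The overall medians of the assembly genes (0.03), regulators (0.05), these Myc targets and the proliferation genes (-0.03) changed sign under at least 1 of centring, quantile normalization and trend removal.

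The cytosolic ribosomal proteins, the parts of the ribosome outside mitochondria, gave medians of -0.17, 0.11 and 0.25 over 65 genes, and GPR15+ number 1 was the lowest array for 39 of them (60%). After the intensity trend was removed their median in number 5 was -0.02, so the sign there was not kept. Of single genes, Rpl35a lay at 0.07, 0.43 and 0.72, Rpl29 at 0.31, 0.12 and 0.54 and Rpl10l at -0.13, -0.39 and -0.21. Proliferation genes did not follow the sign pattern of the ribosomal proteins, with medians of 0.07, -0.22 and -0.01 over 17 genes. Among them, Ccnb2 differed by -1.21 ± 0.29 (SE), Birc5 by -0.54 ± 0.15 (SE) and Mcm6 by 0.28 ± 0.18 (SE), and 7 of 17 lay above 0. T cell receptor-induced genes had a median of -0.13, with 2 of 13 above 0, Irf4 at 0.45 and Egr2 at 0.62. Tnfrsf9 lay at -0.49.

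**Figure D5:**
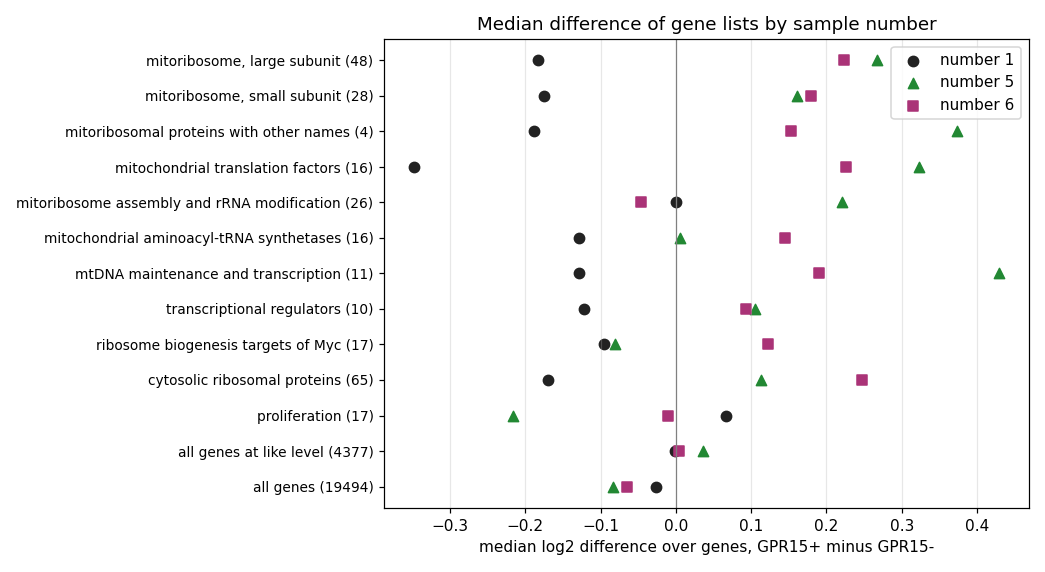
Median log2 difference over genes (horizontal axis) for each gene list (rows, number of measured genes in brackets) in samples numbered 1, 5 and 6. Both mitoribosomal subunits, translation factors and cytosolic ribosomal proteins lie left of 0 in number 1 and right of it in numbers 5 and 6. Mitoribosomal proteins with other names (-0.19, 0.37 and 0.15), mitochondrial DNA genes (-0.13, 0.43 and 0.19) and transcriptional regulators (-0.12, 0.11 and 0.09) do too. Mitochondrial aminoacyl-tRNA synthetases lie at -0.13, 0.01 and 0.14, and proliferation genes do not share these signs.

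Markers of other cells differed between fractions as follows. Epithelial markers had a median of -0.25, with 7 of 9 below 0, where 40.8% of all genes lay above 0. Their array means were 6.89, 6.73 and 6.86 in GPR15- and 6.78, 6.43 and 6.48 in GPR15+. All 5 measured macrophage markers lay below 0 (median -0.35), with means of 6.31, 6.30 and 6.36 against 6.35, 5.82 and 5.78. B and plasma cell markers had a median of -0.48 over 4 genes, with means of 6.17, 6.16 and 5.54 against 5.45, 5.69 and 5.27. Fibroblast and endothelial markers had -0.06 over 6 genes, a sign that centring turned, with means of 6.71, 6.64 and 6.76 against 6.77, 6.56 and 6.66. The macrophage and epithelial means were lowest in GPR15+ numbers 5 and 6, where the mitoribosomal means were highest. These rows are dim, however, with median levels of 6.86 for epithelial and 6.14 for macrophage markers. All genes at 6 to 7 units had medians of -0.17 and -0.12 in numbers 5 and 6. After trend removal the medians were -0.15 for epithelial, -0.22 for macrophage and -0.36 for B and plasma cell markers. Any part of other cells in the result was not tested.

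Some of these genes start close to a gene on the opposite strand. By RefSeq starts, 26 of the 67 members with a promoter entry had such a neighbour within 1000 bases. Of 22 pairs with both genes measured, 8 had differences of equal sign. Neither count was set against all genes, so they describe these pairs only and show no trait of the members. Mrpl47 and the complex I subunit gene Ndufb5 had like signs in each number, with Ndufb5 at -0.67, 0.93 and 0.60. Mrpl43 and Twnk lay apart, at 0.14 and -0.61, as did Mrpl46 and Mrps11, a pair within the ribosome itself, at 0.09 and -0.04. Mrps12 (-0.14) and Sars2 (-0.22), the mitochondrial seryl-tRNA synthetase, were both below 0. These pairs were chosen after their values were seen.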

How the data were processed

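The authors deposited log2 values per probe set, made by RMA per the submitters' processing notes. Detection calls and the submitters' software versions are not given in the sources used here. No background filter was therefore applied. Precision is limited by having 6 arrays. Of 22142 rows, 19527 had 1 gene symbol, 0 several and 2615 none. For 33 genes with more than 1 row the row with the highest mean was taken, which left 19494 genes. All gene identifiers were found in the RefSeq table (GRCm38.p6) and 0 symbols were updated.

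Groups and numbers came from the sample titles. The test was limma's moderated fit without a block (version 3.58.1, R 4.3.3; lmFit, eBayes), p-values adjusted by Benjamini-Hochberg across the 19494 genes, and 0.05 as threshold, and the script was tested on simulated data. Standard errors are limma's from the fit without the block unless the block is named. Medians over lists have no test. Deviations from the group means correlated between equal-numbered samples at 0.567, 0.381 and 0.319, all over 0.1. Equal numbers were therefore treated as pairs in the alternative fit with the replicate block, while the main fit did not use the pairing. Number 5 with number 6 also reached 0.315 and 0.213.

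Values in every array are given for the 5 members with the largest and the 5 with the most negative difference in each subunit, for the 3 brightest and 3 dimmest rows of each, and for Mrps30 and the Mrps18 paralogs. Most related lists name up to 3 members of smallest p, or more where few were measured. Single Myc targets are not named, and not all regulators of small p are. Other members were named after their values were seen, for their role or evenness. The members, lists, roles and motifs were chosen with earlier results of these data known. Alternatives were a filter on dim genes, centring, quantile normalization, trend removal, an intensity-trended variance, array weights, the block, averaged rows and left-out arrays.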

Additional observations from a re-analysis of the deposited data

How the results depend on the processing

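No member passed the adjusted threshold of limma under any of the 15 alternatives planned, or under the 1 chosen after seeing the data (the block with the intensity trend removed), except with array weights, where 8 members were higher and 2174 of all genes passed. Counts of members at an unadjusted p under 0.05 moved most: 23 higher and 3 lower with array weights (12.9% and 20.7% of all genes in that fit), 5 higher and 1 lower with the replicate block (6.14% and 6.23%), 6 higher with the block and the trend removed (6.94%), 16 higher without both arrays numbered 1 (9.59%), and 1 lower after quantile normalization (2.4%). Leaving out single arrays took the count of higher members to 0 at the lowest, when GPR15+ replicate 5 was absent (1.82% of all genes), and to 23 at the highest, when GPR15+ replicate 1 was (9.54%). It was 1 in the absence of GPR15+ replicate 6 (1.83%). The median difference ranged from -0.033 to 0.33 for the large and from -0.089 to 0.27 for the small subunit, highest in the absence of GPR15+ replicate 1. Both medians were also below 0 without GPR15- replicate 1 (-0.0030 and -0.058) and without GPR15+ replicate 5 or 6. The cause was not tested. The pairing changed no adjusted call.

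Single members changed sign as follows. Differences without both arrays numbered 1 were Mrpl17 0.051, Mrpl21 0.13, Mrpl33 0.21, Mrps12 0.11, Mrps18a 0.41 and Mrps34 0.095. With array weights they were Mrpl17 0.018, Mrpl21 0.047, Mrpl33 0.13, Mrps12 0.14, Mrps18a 0.42, Mrps30 0.025 and Mrps34 0.28. Quantile normalization gave Mrpl37 -0.032, Mrps14 -0.095 and Mrps18b -0.018, and centring gave Mrps18a 0.010. Trend removal, with or without the block, gave Mrpl37 -0.041, Mrps14 -0.10 and Mrps30 0.019. With 1 array left out, differences went for Mrpl13 from -0.17 to 1.12, Mrpl17 from -0.53 to 0.042, Mrpl20 from -0.055 to 1.22, Mrpl21 from -0.62 to 0.23, Mrpl24 from -0.049 to 0.41, Mrpl33 from -0.47 to 0.25, Mrpl37 from -0.037 to 0.16, Mrpl43 from -0.15 to 0.38. In the small subunit they went for Mrps12 from -0.30 to 0.12, Mrps14 from -0.31 to 0.60, Mrps18a from -0.45 to 0.64, Mrps18b from -0.25 to 0.29, Mrps24 from -0.46 to 0.17, Mrps30 from -0.35 to 0.15 and Mrps34 from -0.41 to 0.16.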
